A study of Mus musculus with 3 samples.

Results

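Ribosome biogenesis factors are the proteins that fold, cut, modify and export the precursors of the ribosomal subunits. They were followed here as a fixed list of 52 genes, all of which were found by symbol among the 32285 genes of each library. The level of a gene was its UMI count in CPM (scaled to a library total of 1000000), summed over the barcodes with at least 15000 UMIs and 1 to 20% mitochondrial UMIs, where a UMI (unique molecular identifier) stands for 1 captured RNA molecule. Molecules are tagged at their ends in this method, so CPM has no length term. All 52 genes lay above a mean of 10 CPM over the libraries, a floor that 7608 of all listed genes passed.

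The libraries came from E14 cells, an established embryonic stem cell line of the mouse (129/Ola background) grown on gelatin with serum and leukemia inhibitory factor. From 24 h after seeding, the cells of 1 library were kept in 250 µg/mL cycloheximide for 3 h and those of another for 6 h, with 0.007% ethanol as the solvent. Cycloheximide stops translation elongation. The control cells were given ethanol alone for 6 h, so the 3 h library had no control of equal duration. All cells were frozen and thawed before droplet capture. Each condition was 1 library of pooled cells, so no difference below was tested and none has a replicate check. Every interval is a 95% exact interval (Poisson for a level, conditional binomial for a ratio) that covers counting error only.

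Ribosomal RNA is transcribed by RNA polymerase I in the nucleolus as a long precursor. Small nucleolar RNAs (snoRNAs) bound to proteins guide its chemical modification, box C/D particles for ribose methylation and box H/ACA particles for pseudouridine. The SSU processome assembles on the part that becomes the small subunit, further factors finish the 40S and 60S precursors, and the Myc proteins are textbook activators of these genes in growing cells such as embryonic stem cells. Many mammalian snoRNAs are cut from introns of protein-coding genes, some of which encode the biogenesis factors themselves.

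Of the 52 genes, 7 hosted snoRNAs by the rule that at least 1 annotated snoRNA gene lies wholly inside the gene on the same strand (GENCODE M21, build GRCm38). These were Nop56, Nop58, Dkc1, Ncl, Wdr43, Tsr1 and Gnl3, with 21 snoRNA genes between them, 20 of which lay outside every exon of the host's protein-coding transcripts. The letters TGATG of box C near the start and CTGA of box D near the end were found in 14 of the 21. One example for each of 6 hosts is shown because the division into hosting and other genes rests on these inserts. The sequences are RNA genes written as DNA from the GENCODE M21 transcripts, read along the host's own strand, with the letters of box C and box D in capitals. The Dkc1 insert, Gm25520, held neither set of letters and is not shown.
Snord110: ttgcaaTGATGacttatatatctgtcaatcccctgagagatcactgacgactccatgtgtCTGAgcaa
Snord11: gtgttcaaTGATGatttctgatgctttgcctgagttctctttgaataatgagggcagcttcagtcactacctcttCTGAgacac
Snord82: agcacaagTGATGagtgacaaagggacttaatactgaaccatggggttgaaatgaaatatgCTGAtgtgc
Snord92: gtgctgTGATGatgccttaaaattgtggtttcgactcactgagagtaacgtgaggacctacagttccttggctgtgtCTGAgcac
Snord91a: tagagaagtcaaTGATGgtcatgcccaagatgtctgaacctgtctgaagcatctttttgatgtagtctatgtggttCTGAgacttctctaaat
Snord69: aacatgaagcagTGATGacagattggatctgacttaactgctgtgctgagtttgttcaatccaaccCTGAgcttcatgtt
Snord110 lies at chr2:130275506-130275573 in Nop56, Snord11 at chr1:59704790-59704873 in Nop58 and Snord82 at chr1:86356261-86356330 in Ncl, the last on the minus strand. Snord92 lies at chr17:71631281-71631365 in Wdr43, Snord91a at chr11:74905424-74905516 in Tsr1 and Snord69 at chr14:31014287-31014366 in Gnl3, again on the minus strand. In RNAs of this class the stretch before box D pairs with the target RNA and places the methyl group. The libraries were made from polyadenylated RNA, so the values below are those of the host transcripts and not of the snoRNAs.

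The kept barcodes numbered 2187 (control), 1739 (3 h) and 2554 (6 h), with median depths of 43160, 51726 and 46200 UMIs and 106842407 to 140321458 UMIs per library. At most 3 barcodes were shared by any pair of libraries. The mitochondrial share of UMIs was 4.57% (control), 3.51% (3 h) and 2.94% (6 h). The lower mitochondrial limit removed 62 control barcodes, 1 barcode at 3 h and 8 at 6 h. The 62 control barcodes held 6357765 UMIs, of which the 52 genes made up 1.33%, compared with 1.76% in the kept control barcodes. The 8 embryonic stem cell markers were present in all libraries but did not keep a common level. From control to 6 h, Zfp42, Utf1, Sox2, Pou5f1, Tdgf1 and Esrrb were lower by CPM (log2 ratios of -0.93, -0.73, -0.54, -0.20, -0.22 and -0.15). Nanog and Dppa5a were higher by CPM (0.24 and 0.20), and both turned slightly negative under edgeR's TMM scaling factors (-0.050 and -0.088). At 3 h only Utf1 of the 8 was below the control by CPM (-0.12), and the others ran from 0.12 for Pou5f1 to 0.57 for Esrrb. Under TMM factors Pou5f1 and Dppa5a were at -0.053 and -0.016 at 3 h. The part of these 8 markers in the ratios of the biogenesis factors was not tested. Of 6 fibroblast markers the highest was Col1a1 at 0.341 CPM in the control, while Col3a1, Lum and Postn had no UMI in any library. Of 6 primitive endoderm markers, Sparc lay at 137 to 150 CPM and the other 5 under 4 CPM, and no two-cell-like marker exceeded 0.359 CPM.

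As a group the biogenesis factors held almost the same share of the transcriptome in each library. Their summed level was 17548 CPM (control), 17732 CPM (3 h) and 16496 CPM (6 h), or 1.76%, 1.77% and 1.65% of all UMIs. Nucleolin (Ncl) and nucleophosmin (Npm1), the abundant nucleolar chaperones, supplied 49.5% (control), 46.7% (3 h) and 44.9% (6 h) of these UMIs. Without that pair, the other 50 genes summed to 8858 CPM (control), 9448 CPM (3 h) and 9085 CPM (6 h). Control levels ran from 40.4 CPM for Rrp12 to 5548 CPM for Npm1, with a median of 126.5 CPM beside 33.4 CPM over all genes above the floor. Every member was counted with at least 3728 UMIs in a library, so intervals of the log2 ratios at 6 h reached at most 0.062 from the value.

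At 3 h the median log2 ratio of the 52 genes to the control was 0.039 and at 6 h it was -0.026. The corresponding medians of all 7608 genes above the floor were 0.11 and 0.17. The genes of the list divided almost evenly around equality by CPM, 24 below and 28 above at 3 h, and 27 below and 25 above at 6 h. All 7608 genes did not, with 2732 below and 4876 above at 3 h, and 2734 below and 4874 above at 6 h. Only 18 of the 52 at 3 h and 15 of 52 at 6 h lay above the median of all genes. The sign of the list's median depended on the scaling, since edgeR's TMM factors moved it to -0.14 after 3 h and -0.31 after 6 h, and mean UMIs per barcode moved it to 0.31 and 0.082. The median of all genes moved with it, by -0.17 and -0.29 under TMM and by 0.27 and 0.11 per barcode. Directions and orders of libraries below are by CPM, and many small ones turn on another scale: 19 of the 52 genes at 3 h and 34 of 52 at 6 h kept 1 sign under every alternative of scaling, barcodes, free RNA and prior that was tried. The spread within the list was narrower than over all genes, with a standard deviation of log2 ratios at 6 h of 0.43 over the 52 genes and 0.66 over the 7608.

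**Figure D1:**
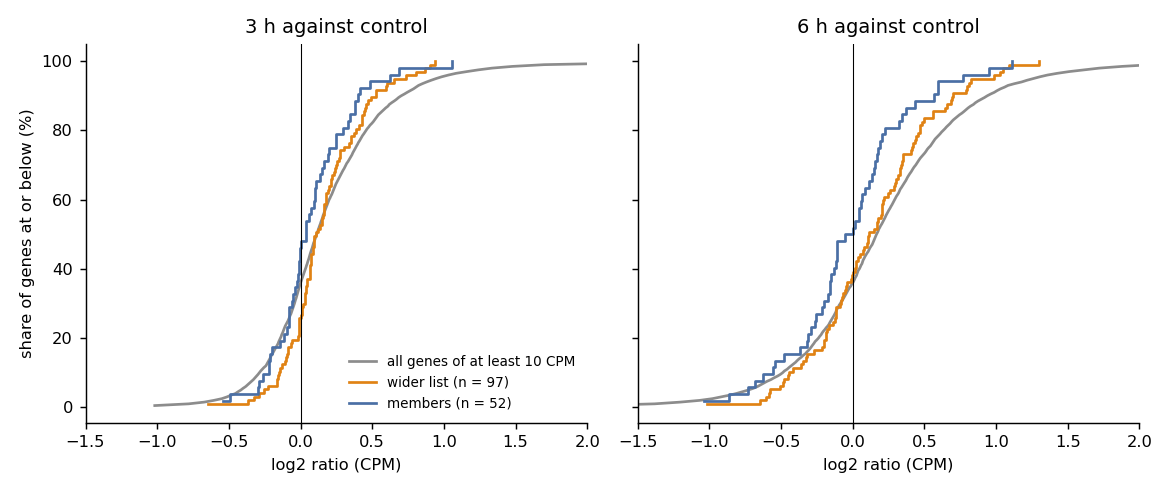
Cumulative share of genes (%) at or below each log2 ratio of CPM to the control, at 3 h (left) and 6 h (right), for the 52 members, a wider list of 97 other biogenesis factors, and all 7608 genes above the floor. At 6 h the members' curve lies to the left of the all-gene curve around its middle, with medians of -0.026 and 0.17, and it is steeper.

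A gene was counted as higher or lower when its ratio passed 1.5-fold (0.58 on the log2 scale) and the interval of the ratio excluded equality. At 3 h, 0 of the 52 genes were at least 1.5-fold lower, beside 2.13% of all genes, and 3 (Tsr1, Nop56 and Rrs1) were at least 1.5-fold higher, beside 13.9% of all genes. At 6 h, 5 were lower, which is 9.62% of the list beside 7.79% of all genes, and 5 were higher, again 9.62% beside 22.1% of all genes. The lower genes were Gnl3, Imp3, Rrp1b, Ddx21 and Heatr1, and the higher genes were Tsr1, Nop56, Ddx56, Dkc1 and Brix1. The share of members on the lower side was thus near the background, and the share on the higher side was under it. From 3 h to 6 h, Gnl3 alone was at least 1.5-fold lower, 1 of 52 beside 2.52% of all genes, and 0 members were higher, beside 1.74%. With TMM factors, 11 members were lower and 2 higher at 6 h, while 16.9% and 11.6% of all genes were. Of the 5 lower genes, all kept their sign at 6 h under every scaling and barcode rule tried, as did the 5 higher ones. Counts past 1.5-fold at 6 h varied with the barcode rule. They were 4 lower and 4 higher with no lower mitochondrial limit, and 6 lower and 4 higher over barcodes of 30000 to 60000 UMIs. Shares of all genes were not taken under these rules.

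**Figure D2:**
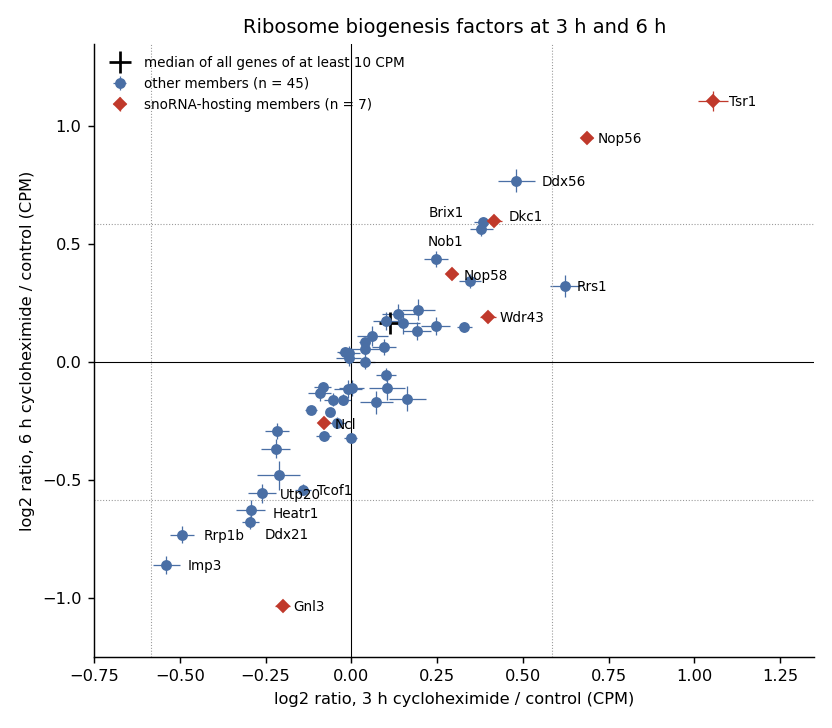
Log2 ratio of CPM to the control at 3 h (x axis) and at 6 h (y axis) for the 52 members, with 95% exact counting intervals as bars and dotted lines at 1.5-fold. Diamonds are the 7 snoRNA-hosting members and circles the other 45, both axes share the control library, and Gnl3 lies at -0.20 and -1.03 whereas Tsr1 lies at 1.05 and 1.11.

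Nop56 and Nop58, which form the scaffold of box C/D snoRNPs, were both higher in the treated libraries. Nop56 (chr2:130274430-130279313) was measured at 381 CPM (control), 614 CPM (3 h) and 739 CPM (6 h). The treated libraries were both above the control, by log2 ratios of 0.69 (interval 0.67 to 0.70) at 3 h and 0.95 (0.94 to 0.97) at 6 h, and every alternative left Nop56 above 0. Nop58 (chr1:59684971-59719044) stood at 494 CPM (control), 606 CPM (3 h) and 640 CPM (6 h), with log2 ratios of 0.29 and 0.37, and its intervals did not overlap between the libraries. From 3 h to 6 h Nop58 was slightly higher by CPM (0.079) and slightly lower under TMM factors (-0.033). Fibrillarin (Fbl), the methyltransferase of the same particle, lay at 293 CPM (control), 289 CPM (3 h) and 302 CPM (6 h). Its ratio of 0.044 at 6 h turned to -0.24 under TMM factors, so no direction is given for it. The 3 genes summed to 1168 CPM (control), 1509 CPM (3 h) and 1680 CPM (6 h), and Nop56 contributed most of the difference.

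In the box H/ACA snoRNP, the 4 core proteins were not at a common ratio. Dkc1 (chrX:75095854-75109777), the pseudouridine synthase, stood at 267 CPM (control), 356 CPM (3 h) and 404 CPM (6 h). Its level was highest at 6 h and lowest in the control, with log2 ratios of 0.42 and 0.60 (0.58 to 0.62), the latter just past 1.5-fold. Gar1, a core protein that binds Dkc1, was at 106 CPM (control), 126 CPM (3 h) and 144 CPM (6 h), also in ascending order, with a log2 ratio of 0.44 at 6 h. Nhp2, an RNA-binding subunit, was at 591 CPM (control), 607 CPM (3 h) and 627 CPM (6 h), and its log2 ratio of 0.085 at 6 h became -0.20 under TMM factors. Nop10, a very small protein of the particle, was at 573 CPM (control), 528 CPM (3 h) and 498 CPM (6 h), in descending order by CPM. Its log2 ratio of -0.12 at 3 h turned to 0.15 per barcode, while that of -0.20 at 6 h kept its sign in every alternative tried. Summed, the 4 genes gave 1537 CPM (control), 1618 CPM (3 h) and 1673 CPM (6 h).

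The 5 genes of nucleolar organisation and polymerase I transcription were the role group with the lowest median at 6 h. All 5 lay below the control at both times by CPM, with a median log2 ratio of -0.079 after 3 h and -0.31 after 6 h. At 3 h this direction turned when mean UMIs per barcode were used (median 0.19), while at 6 h it held under TMM factors (-0.60) and per barcode (-0.20). Ncl (chr1:86344719-86359400), which binds the ribosomal RNA precursor and nucleolar chromatin, was at 3141 CPM (control), 2973 CPM (3 h) and 2623 CPM (6 h). Npm1, a chaperone and scaffold of the nucleolus, was at 5548 CPM (control), 5311 CPM (3 h) and 4788 CPM (6 h). Processed copies of Npm1 exist elsewhere in the genome, and how reads shared with them were counted is not given in the sources used here, so its level is uncertain in that respect. For both the 3 libraries stood in descending order with intervals that did not overlap, and the log2 ratios at 6 h were -0.26 (-0.27 to -0.25) and -0.21 (-0.22 to -0.21). These are 0.835 and 0.863 times the control level. The lowest ratio of the group was that of Tcof1, whose product treacle links polymerase I to the modification machinery, at 295 CPM (control), 268 CPM (3 h) and 203 CPM (6 h). Its log2 ratio was -0.54 at 6 h, just short of 1.5-fold. Nolc1, a chaperone of snoRNPs, was at 381 CPM (control), 380 CPM (3 h) and 305 CPM (6 h), so that only the 6 h library stood apart (-0.002 after 3 h and -0.32 after 6 h). Mybbp1a, a nucleolar protein that binds Myb, had log2 ratios of -0.08 and -0.31. In sum the group was at 9681 CPM (control), 9230 CPM (3 h) and 8173 CPM (6 h).

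**Figure D3:**
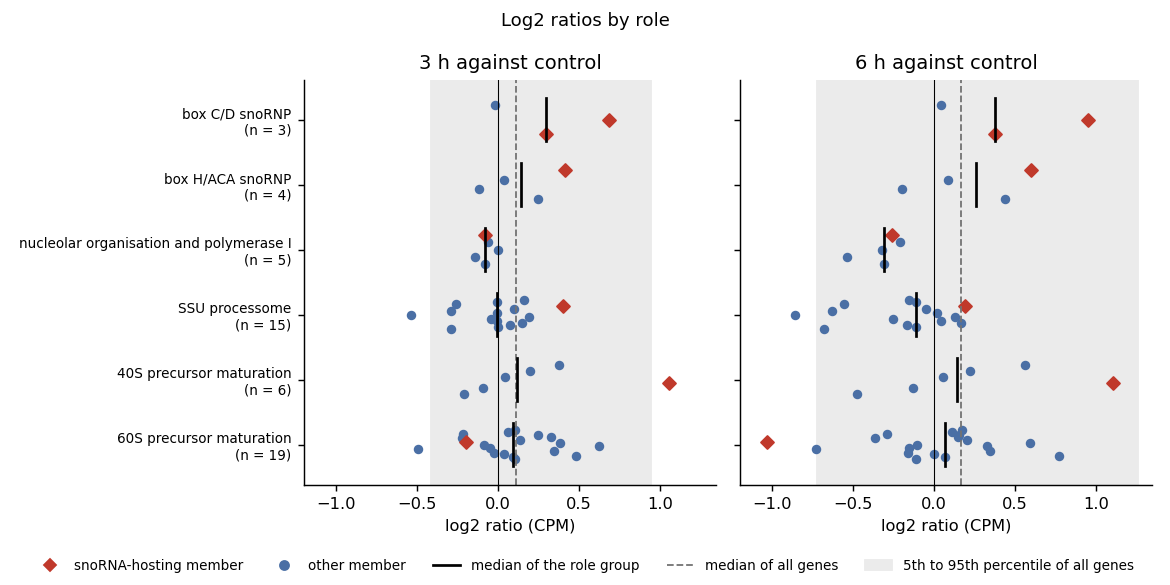
Log2 ratios of CPM to the control for each member by role, at 3 h (left) and 6 h (right); short black lines are the medians of each role group, the dashed line is the median of all genes and the grey band their 5th to 95th percentile. The 5 nucleolar genes all lie left of 0, and Gnl3, Imp3 and, by a small margin, Rrp1b lie left of the band at 6 h.

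The SSU processome was represented by 15 genes, with a median log2 ratio of -0.0056 after 3 h and -0.11 after 6 h. At 6 h, 10 of them were below the control and 5 above. Of the 15, 3 were at least 1.5-fold lower and 0 at least 1.5-fold higher, beside 7.79% and 22.1% of all genes. The median turned to 0.26 at 3 h with mean UMIs per barcode and was -0.0057 at 6 h on that scale. Imp3 (chr9:56937475-56938398), which joins the U3 snoRNA to the ribosomal RNA precursor, was measured at 122 CPM (control), 84.0 CPM (3 h) and 67.2 CPM (6 h). The levels descended from library to library without overlap of their intervals, with log2 ratios of -0.54 (-0.58 to -0.50) and -0.86 (-0.90 to -0.82). Its 2 partners in the same complex had other values, since Imp4 was at 86.6, 98.9 and 94.8 CPM and Mphosph10 at 234, 227 and 196 CPM, in the order control, 3 h, 6 h. Imp4 at 6 h, 0.13 by CPM, turned to -0.16 under TMM factors. Ddx21, an RNA helicase that acts in ribosomal RNA transcription and processing, was at 240 CPM (control), 196 CPM (3 h) and 150 CPM (6 h), a log2 ratio of -0.68 at 6 h. Heatr1, a large scaffold protein also needed for polymerase I transcription, was at 88.5 CPM (control), 72.2 CPM (3 h) and 57.2 CPM (6 h), a log2 ratio of -0.63. Utp20, another large scaffold, lay just short of 1.5-fold, at 99.2 CPM (control), 82.9 CPM (3 h) and 67.4 CPM (6 h). These 4 genes shared a descending order by CPM, although Utp20 at 3 h was at 0.0096 per barcode, and their 6 h levels were 0.551, 0.624, 0.647 and 0.68 times those of the control.

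At the upper end of the same group, Wdr43 (chr17:71615895-71659031), a subunit of the complex that first binds the precursor, was at 237 CPM (control), 312 CPM (3 h) and 270 CPM (6 h). Its highest level was at 3 h, and its log2 ratio was 0.40 there and 0.19 at 6 h, the latter turning to -0.095 under TMM factors. Noc4l, the partner of Nop14, was second at 6 h with 58.2 CPM (control), 64.7 CPM (3 h) and 65.3 CPM (6 h). Nop14 itself was nearly level at 168, 167 and 172 CPM, and so was Rrp9, a protein of the U3 snoRNP, at 120, 119 and 121 CPM. Utp15 and Wdr75, which sit in the same subcomplex as Wdr43 and Heatr1, and Rcl1, which is needed for precursor cleavage, were higher at 3 h and lower at 6 h by CPM. Utp18 and the helicase Ddx10 had 6 h log2 ratios of -0.11 and -0.11. Thus the subunits of this large particle were not at a common ratio, and the lowest and highest of the 15 at 6 h were -0.86 and 0.19.

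Maturation of the 40S precursor was covered by 6 genes, with a median log2 ratio of 0.12 after 3 h and 0.14 after 6 h, which turned to -0.056 and -0.15 under TMM factors. Tsr1 (chr11:74898071-74909342), a GTPase-like protein that sits on the late 40S precursor, had the highest ratio of all 52 genes at both times. It was measured at 59.1 CPM (control), 123 CPM (3 h) and 127 CPM (6 h). Both treated libraries were about level with each other and far above the control, with log2 ratios of 1.05 (1.01 to 1.10) and 1.11 (1.07 to 1.15), or 2.08-fold and 2.16-fold. At 6 h Tsr1 stood at percentile 93.3 of all genes above the floor, inside the range of many other genes. Nob1, the endonuclease that makes the final cut of the small-subunit RNA, was at 122 CPM (control), 159 CPM (3 h) and 180 CPM (6 h), ascending, with a log2 ratio of 0.56 at 6 h. Its partner Pno1 was at 137 CPM (control), 129 CPM (3 h) and 125 CPM (6 h), in descending order by CPM, and Rrp12, an export factor, was at 40.4 CPM (control), 34.9 CPM (3 h) and 29.0 CPM (6 h), with log2 ratios at 6 h of -0.13 and -0.48. At 3 h their log2 ratios of -0.092 and -0.21 turned to 0.18 and 0.058 per barcode. Bysl and Ltv1, which also bind the late precursor, had 6 h log2 ratios of 0.22 and 0.054, and both turned negative under TMM factors (-0.064 and -0.23).

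For the 60S precursor the list held 19 genes, with a median log2 ratio of 0.10 after 3 h and 0.065 after 6 h (-0.079 and -0.22 under TMM factors). At 6 h, 9 were below the control and 10 above. Of the 19, 2 were at least 1.5-fold lower and 2 at least 1.5-fold higher, beside 7.79% and 22.1% of all genes. Gnl3 (chr14:31012433-31019152), the GTPase nucleostemin, had the lowest ratio of the 52 genes at 6 h. It was measured at 349 CPM (control), 304 CPM (3 h) and 171 CPM (6 h), so the 3 h library was close to the control and the 6 h library far below both. The log2 ratios were -0.20 (-0.22 to -0.18) at 3 h, -1.03 (-1.06 to -1.01) at 6 h and -0.83 (-0.86 to -0.81) from 3 h to 6 h. The 3 h value turned to 0.07 with mean UMIs per barcode. The value at 6 h corresponds to 0.488 times the control and to percentile 2.21 of all genes. Its relative Gnl2 was at 59.7, 65.6 and 68.7 CPM in the same order of libraries, and its log2 ratio of 0.20 at 6 h turned to -0.084 under TMM factors.

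Rrp1b (chr17:32036100-32062865), a nucleolar protein of the 60S precursor, was at 137 CPM (control), 97.4 CPM (3 h) and 82.5 CPM (6 h), descending, with log2 ratios of -0.49 and -0.73 (-0.77 to -0.70). Its paralog Rrp1 stayed within 1.5-fold at 199, 192 and 178 CPM. On the upper side, the helicase Ddx56 (chr11:6258919-6267772) was at 45.2 CPM (control), 63.1 CPM (3 h) and 77.1 CPM (6 h), with log2 ratios of 0.48 and 0.77 (0.72 to 0.82). Brix1, an assembly factor of the early 60S precursor, was at 214 CPM (control), 279 CPM (3 h) and 323 CPM (6 h), just past 1.5-fold at 6 h (0.59). Both stood in ascending order across the libraries. The related helicases Ddx18 and Ddx27 had 6 h log2 ratios of -0.16 and -0.00028. Rrs1, which brings the 5S ribosomal RNA particle to the precursor, peaked at 3 h, at 57.5 CPM (control), 88.6 CPM (3 h) and 72.0 CPM (6 h), with log2 ratios of 0.62 (0.58 to 0.67) and 0.32.

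The remaining 60S factors had smaller ratios. Pes1, Bop1 and Wdr12 form 1 complex, yet at 6 h Pes1 and Bop1 were at 0.17 and 0.11 and Wdr12 was at -0.29. The first pair turned negative under TMM factors (-0.11 and -0.17). Nip7 (268, 337 and 297 CPM) and the methyltransferase Nop2 (78.7, 93.3 and 87.5 CPM) were highest at 3 h by CPM, with 6 h ratios that turned to -0.14 and -0.13 under TMM factors, and Rrp15 was at 128, 163 and 162 CPM, equal at both times within its counting interval. Nop16 was at 90.0, 77.3 and 69.8 CPM, in descending order by CPM, and its 3 h log2 ratio of -0.22 turned to 0.049 per barcode. Ebna1bp2, Noc2l and Noc3l had 6 h log2 ratios of -0.11, 0.065 and -0.11, of which the first turned to 0.0014 per barcode and the second to -0.22 under TMM factors.

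The snoRNA-hosting members were compared with the others. At 3 h the 7 hosts had a median log2 ratio of 0.40 and the other 45 genes 0.00066, a difference of 0.40. Each scaling shifts all log2 ratios of a comparison by the same amount. A difference of medians is therefore equal under every scaling by construction, which is no check of it. At 6 h the medians were 0.37 and -0.11, a difference of 0.48. The median of all genes, 0.11 at 3 h and 0.17 at 6 h, lay between the hosts and the other members at both times. Above the control at both times were 5 of the 7 hosts (Nop56, Nop58, Dkc1, Wdr43 and Tsr1), and the other 2, Ncl and Gnl3, were below it, although Wdr43 at 6 h lay under 0 with TMM factors and Ncl and Gnl3 at 3 h lay above 0 per barcode. The hosts thus held the highest and the lowest ratio of the whole list at 6 h, Tsr1 and Gnl3. At least 1.5-fold higher at 6 h were 3 of the 7 hosts (of 5 members in all), beside 22.1% of all genes. At least 1.5-fold lower was 1 of the 7, Gnl3, beside 7.79% of all genes. Leaving out each host in turn, an alternative that for the hosts other than Ncl was chosen after the values had been seen, kept the 6 h difference between 0.39 and 0.59. In summed levels the difference was smaller, 0.12 at 3 h and 0.14 at 6 h, because Ncl made up most of the hosts' total of 4929 CPM (control), 5289 CPM (3 h) and 4974 CPM (6 h). The 45 other genes summed to 12619, 12444 and 11523 CPM.

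**Figure D4:**
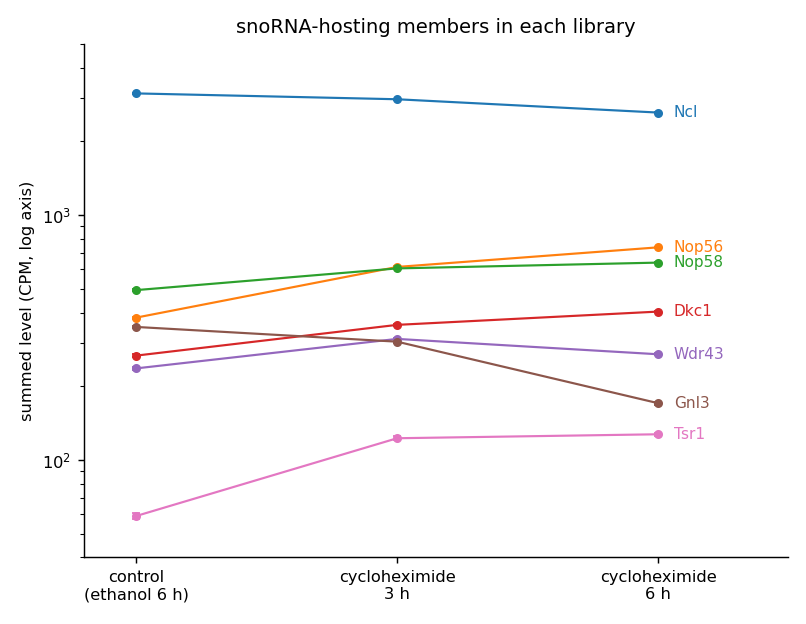
Summed level (CPM, log axis) of the 7 snoRNA-hosting members in the control, 3 h and 6 h libraries, with 95% exact Poisson intervals that are mostly smaller than the points. On this scale Nop56, Nop58, Dkc1 and Tsr1 ascend from library to library, Wdr43 peaks at 3 h, Ncl descends and Gnl3 is low at 6 h (171 CPM).

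Outside the list, other protein-coding hosts by the same rule (181 of 264 above the floor) had median log2 ratios of 0.0089 (3 h) and 0.0034 (6 h). Those of snoRNAs with a Snord, Snora or Scarna name (58 of 63) had -0.022 and -0.058, and noncoding hosts of such snoRNAs (18 of 23) had 1.98 and 2.29. The 7 hosts of the list therefore lay above both protein-coding sets by median and far below the noncoding set, with no test of these differences. Hosts also differed from the other members in their transcript annotation. A transcript marked for nonsense-mediated decay was annotated for 6 of the 7 hosts and for 11 of the other 45, a feature examined after the values had been seen. Among the 45 other genes, the 11 with such a transcript had a median of -0.32 at 6 h and the 34 without it had -0.026. Of these 11, Rrp1b with 5 such transcripts lay at -0.73 and Nob1 with 2 at 0.56. Exons of a gene on the other strand overlapped 5 hosts (Nop56 with Idh3b, Dkc1 with Mpp1, Wdr43 with CT010429.2, Tsr1 with Srr and Gnl3 with Pbrm1) and 14 other members, including Rrp1b with Hsf2bp and Heatr1 with Lgals8. Whether reads were counted by strand is not given in the sources used here, so the values of these 19 genes are uncertain in that respect. Imp3 and Rrs1, the 2 members without an intron, lay on opposite sides of the control at both times.

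Myc and Mycn, the activators of these genes, had far lower levels at 6 h. Myc was at 35.8 CPM (control), 25.6 CPM (3 h) and 6.78 CPM (6 h), and Mycn at 29.7 CPM (control), 29.8 CPM (3 h) and 10.8 CPM (6 h). Their log2 ratios at 6 h were -2.40 (-2.50 to -2.30) and -1.46 (-1.55 to -1.37), beside -0.026 for the median of the 52 genes, while Mycl stayed near 1.88 CPM. The promoters of 45 of the 52 genes were matched in RefSeq (build GRCm38.p6), as 250 bases before and 50 after each start. The E-box CACGTG, the palindrome that Myc binds, was found in 10 of the 45 genes (22.2%), beside 12.8% of genes above the floor and 8.09% of all genes with a promoter in that table. The ETS motif CCGGAAG on either strand was found in 17 of the 45 (37.8%), beside 25.5% and 9.93%. A match describes letters in a window and not a bound site.

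The 3 members whose E-box lies before the start were Imp4, Nop2 and Utp18, and their 250 bases before the start are shown because the same motif stands at different distances in them. The E-box is in capitals, and each sequence is read along the strand of its gene (RefSeq, GRCm38.p6).
Imp4: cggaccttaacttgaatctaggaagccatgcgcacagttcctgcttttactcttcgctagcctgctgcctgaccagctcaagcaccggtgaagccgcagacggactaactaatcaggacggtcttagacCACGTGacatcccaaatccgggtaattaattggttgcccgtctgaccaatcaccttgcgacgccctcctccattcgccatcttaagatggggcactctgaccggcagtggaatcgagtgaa
Nop2: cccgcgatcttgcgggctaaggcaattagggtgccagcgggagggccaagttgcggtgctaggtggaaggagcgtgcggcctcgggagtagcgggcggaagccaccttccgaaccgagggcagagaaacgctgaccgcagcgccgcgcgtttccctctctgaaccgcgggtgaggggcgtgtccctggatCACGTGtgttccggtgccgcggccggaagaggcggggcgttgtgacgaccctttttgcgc
Utp18: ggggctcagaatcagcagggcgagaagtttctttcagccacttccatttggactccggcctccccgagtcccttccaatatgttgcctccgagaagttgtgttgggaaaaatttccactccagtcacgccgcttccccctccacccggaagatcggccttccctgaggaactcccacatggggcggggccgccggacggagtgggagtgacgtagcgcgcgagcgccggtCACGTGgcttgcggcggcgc
The windows are chr1:34439579-34439828, chr6:125131633-125131882 and chr11:93885767-93886016, and the E-box begins at position -121 in Imp4, -60 in Nop2 and -20 in Utp18, counted back from the start. Their log2 ratios at 6 h were 0.13, 0.15 and -0.11. Nop2 and Utp18 also held the ETS letters. In the other 7 genes with an E-box (Ltv1, Mybbp1a, Pes1, Pno1, Tsr1, Utp20 and Wdr43) it lay within the first 50 transcribed bases. This set reached from -0.56 for Utp20 to 1.11 for Tsr1. Of all 10 genes with the motif, 4 lay below the control at 6 h and 6 above. At least 1.5-fold lower were 0 of the 10, beside 7.79% of all genes, and 1 was at least 1.5-fold higher, beside 22.1%. The median at 6 h was 0.093 over the 10 genes with the motif and -0.11 over the 35 without it by CPM. Under TMM factors both medians were negative (-0.19 and -0.39), and per barcode both were positive (0.20 and 0.0014).

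The levels were also read cell by cell, after each kept barcode had been thinned to 15000 UMIs so that depth was equal. All kept barcodes reached that depth and none was left out by the thinning. The median number of UMIs from the 52 genes was 264 for the ethanol cells (quartiles 240 and 287), 266 after 3 h (242 and 290) and 248 after 6 h (227 and 268). The shift at 6 h came with Ncl and Npm1, whose median stood in descending order, 132 for ethanol, 125 after 3 h and 111 after 6 h, while the other 50 genes gave 133, 141 and 136. Quartiles of the Ncl and Npm1 counts were 114 and 147 in the control and 98 and 126 at 6 h, so both quartiles were lower along with the median. Between cells of 1 library the summed counts of the other 50 genes varied by a coefficient of variation of 13.4% (control), 12.5% (3 h) and 11.7% (6 h), and those of Ncl and Npm1 by 19.2%, 19.5% and 19.5%. Counting error is part of this variation and was not taken out. The variance was 2.38, 2.19 and 1.86 times the mean for the other 50 genes, in the same order of libraries. For Ncl and Npm1 it was 4.81, 4.72 and 4.25 times, whereas counting error alone makes the variance about equal to the mean. Cells of 1 library share a culture and a capture, and these figures compare 3 libraries and not replicates.

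**Figure D5:**
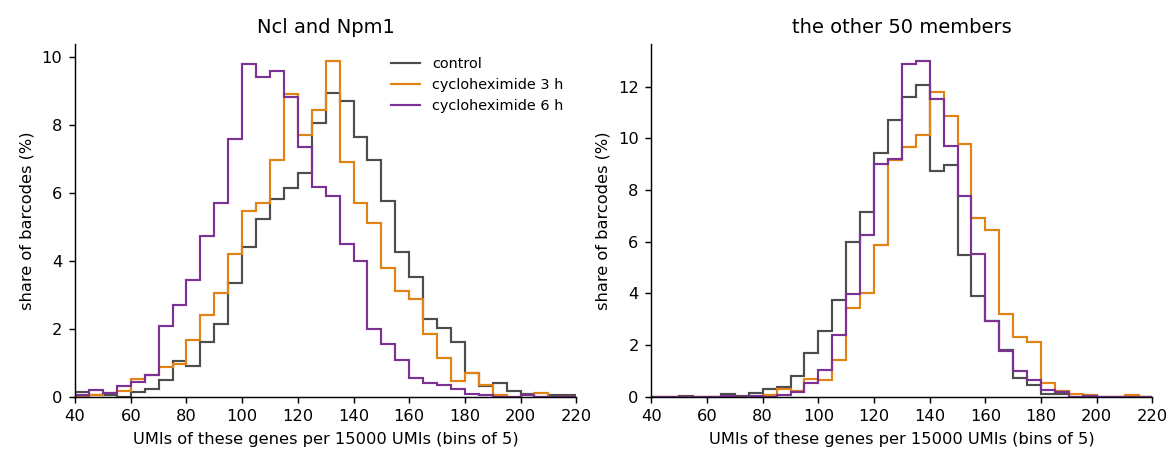
Share of kept barcodes (%) by the number of UMIs per 15000 UMIs that came from Ncl and Npm1 (left) or from the other 50 members (right), in bins of 5 UMIs between 40 and 220, for the 3 libraries. On the left the 6 h curve is shifted to lower counts (median 111 against 132 in the control), and on the right the curves overlap with medians of 133, 141 and 136.

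A wider list of 97 other biogenesis factors, all above the floor, was set beside the 52 genes. Its median log2 ratio was 0.11 after 3 h and 0.11 after 6 h, nearer to the 0.11 and 0.17 of all genes than the members were. Under TMM factors it was -0.067 and -0.17. At 6 h, 14 of the 97 were at least 1.5-fold higher and 4 at least 1.5-fold lower, beside 22.1% and 7.79% of all genes. For 3 h the counts were 8 and 1, beside 13.9% and 2.13% of all genes. The highest 3 at 6 h were Tsr2 (1.30), which escorts a small-subunit protein, the helicase Ddx31 (1.09) and Tsr3 (1.05), which modifies the small-subunit RNA. The lowest 3 were Nol8 (-1.02), Sdad1 (-0.65) and the large 60S remodelling ATPase Mdn1 (-0.60). Tsr1, Tsr2 and Tsr3 share a name for their part in ribosomal RNA accumulation and are not related proteins.

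Free RNA in the droplets was read from barcodes with 10 to 100 UMIs. In that profile the 10 members that passed 1.5-fold at 6 h were on the same side of the control as in the kept barcodes. The profile comes from the same libraries, so this is no independent check, and the matching share of all genes was not taken. Subtracting 10% of each library's UMIs in this profile left 5 members at least 1.5-fold lower and 5 higher at 6 h, the same counts as given above. Under this setting the share of all genes past 1.5-fold was not taken, so these counts have no background.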

How the data were processed

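Droplet libraries (10x Genomics single-cell chemistry) of 3 cell samples, 1 per condition, were used. The deposited matrices hold unnormalized UMI counts, which the authors made with Cell Ranger 4.0.0 on build mm10, per the submitters' processing notes. How overlapping genes were counted is not given in the sources used here. Cells had not been called in the matrices, so barcodes with at least 15000 UMIs and 1 to 20% mitochondrial UMIs were kept. No doublet caller was run, and barcodes above 2 times their library's median were left out in an alternative.

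Counts were summed per library and gene and divided by the library total to give CPM, with a prior of 0.5 counts in log2 ratios. The background was formed by all genes whose mean reached 10 CPM. Intervals are exact and cover counting error only, and the depth of 106842407 to 140321458 UMIs makes them narrow. The members, the wider list and the markers were chosen with earlier results of these data known. Values per library are given for each snoRNA host, each snoRNP protein, the 2 highest and 2 lowest ratios at 6 h in each larger role group and the members past 1.5-fold, and the others by ratio or range. Annotation was matched to GENCODE M21 by identifier (32158 of 32285), and promoters to RefSeq by symbol. Alternatives covered scaling, barcode rules, free RNA, floors, prior, fold and the choice of hosts. The ratio and interval code was tested on simulated data. Python 3.11.15, numpy 2.4.6, scipy 1.17.1 and pandas 2.3.3 were used, with TMM factors from edgeR 4.0.16 in R 4.3.3.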

Additional observations from a re-analysis of the deposited data

Results flagged for a closer look

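Of the 52 members, 4 lay on opposite sides of the control at the 2 times by CPM, above it at 3 h and below it at 6 h, with counting intervals that excluded equality at both. No test of 6 h against 3 h was made, as there was 1 library for each, so this difference was not tested. For Utp15, an SSU processome subunit, the levels were 46.9 CPM (control), 52.5 CPM (3 h) and 42.2 CPM (6 h), and the log2 ratio of 6 h to 3 h was -0.32. Noc3l, a 60S factor, was at 52.3 CPM (control), 56.3 CPM (3 h) and 48.5 CPM (6 h), a log2 ratio of -0.22 from 3 h to 6 h. The corresponding ratio was -0.24 for Rcl1, which was at 60.5 CPM (control), 63.6 CPM (3 h) and 53.7 CPM (6 h). Wdr75 had the smallest difference, -0.15, at 161 CPM (control), 172 CPM (3 h) and 155 CPM (6 h). All 4 turned negative at 3 h under TMM factors, with log2 ratios of -0.012, -0.069, -0.10 and -0.074 in the same order. Wdr75 turned positive at 6 h by mean UMIs per barcode (0.056).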

How the results depend on the processing

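No paired analysis was possible because each condition was 1 library. Scaling moved the list most, and the cause was not tested. Under TMM factors the members' median log2 ratio was -0.14 at 3 h, -0.31 at 6 h and -0.20 from 3 h to 6 h. Mean UMIs per barcode gave 0.31, 0.082 and -0.25, and subtracting the median of all genes gave -0.072, -0.19 and -0.13. The last of these centres all genes at 0 by construction. A floor of 50 CPM, which leaves 50 members, gave 0.0083 at 6 h. Counts of members at least 1.5-fold lower became 2 at 3 h and 11 at 6 h under TMM, beside 5.23% and 16.9% of all genes. After subtracting the median they were 2 and 8, beside 3.72% and 12.3%. Counts at least 1.5-fold higher became 1 and 2 under TMM, beside 8.60% and 11.6% of all genes. After subtracting the median these were 1 and 3, beside 10.1% and 15.3%. Per barcode, 3 members were lower at 6 h and 10 higher at 3 h. The share of all genes was not taken on that scale, where the median of all genes was 0.38 at 3 h and 0.27 at 6 h. The count of 10 therefore has no background and is not read as a result about the members. At 2-fold, 1 member was higher at each time and 1 lower at 6 h, again without a share of all genes. Over all genes, 73.9% of those past 1.5-fold at 6 h were higher by CPM, 40.7% under TMM and 55.4% after subtracting the median. At 3 h these shares were 86.7%, 62.2% and 73.2%. The difference between hosts and other members at 6 h was 0.42 over barcodes of 30000 to 60000 UMIs, 0.43 with the 50 CPM floor, 0.14 in summed CPM (0.12 at 3 h) and 0.59 without Ncl. Among alternatives chosen after the values had been seen, it was 0.39 for hosts of named snoRNAs and without Nop56, Dkc1 or Tsr1, and 0.59 without Wdr43 or Gnl3. Of the 52 members, 19 at 3 h and 34 at 6 h kept 1 sign in all alternatives on scaling, barcodes, free RNA and prior. No member past 1.5-fold changed sign in these. Depth did not limit the ratios, whereas variation between cultures and captures has no measure here.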
